A study of Homo sapiens with 12 samples.

Results

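The genes described here are the nuclear-encoded subunits of the mitochondrial respiratory chain and of ATP synthase, together with the NDUFAF assembly factors of complex I. Members were picked by gene symbol, but the set was chosen with earlier results of these data known. They are the symbols that begin with NDUFA, NDUFB, NDUFC, NDUFS, NDUFV, UQCR, COX4 to COX8, ATP5F, ATP5M, ATP5P or ATP5IF, plus *SDHA* to *SDHD*. Of 43236 symbols in each library, 106 matched, and 98 remained after 2 pseudogenes and 6 antisense or divergent transcripts were dropped. Complex I had 38 members beside 8 assembly factors, complex II had 4, complex III 9, complex IV 19 and complex V 20.

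The respiratory chain moves electrons from NADH (complex I) or succinate (complex II) through ubiquinone to complex III, and through cytochrome c to complex IV, which reduces oxygen. Complexes I, III and IV pump protons across the inner mitochondrial membrane, and complex V, the ATP synthase, uses the return of these protons to make ATP. Most subunits are encoded in the nucleus and imported, but mitochondrial DNA encodes core subunits of complexes I, III, IV and V, so that each of these complexes is built from the products of both genomes.

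The cells were MNNG/HOS (HOS-MNNG), a human osteosarcoma line derived from HOS by chemical transformation. They were given either DMSO, the solvent, or NXP800, a compound developed as an inhibitor of the heat shock factor pathway, at 300 nM, and polyA RNA was taken after 6 h or 24 h. Each of the 4 groups (DMSO 6 h, NXP800 6 h, DMSO 24 h and NXP800 24 h) had 3 libraries, all from this 1 line. Nothing in the labels says whether the 3 libraries came from separate cultures, so that p-values measure only the spread between these libraries, which may be technical.

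Counts on genes lay between 30810614 and 31394097 per library at 6 h and between 30947195 and 31947656 at 24 h. Read pairs on no annotated gene made up 6.66 to 8.14% of a 6 h library but 2.73 to 3.67% of a 24 h library, so time and library set cannot be told apart, and NXP800 was set against DMSO only within 6 h or within 24 h. The osteoblast-lineage regulator *RUNX2* was at 20.7 to 42.5 CPM (counts relative to the TMM-scaled library size) and *COL1A1* at 143 to 566 CPM, whereas the bone markers *COL1A2*, *ALPL* and *IBSP* did not exceed 0.378 CPM. Among markers of other cell types, *PTPRC*, *CD3E*, *CDH5* and *CDH1* reached at most 0.240 CPM, *PECAM1* 0.914 CPM and the epithelial marker *EPCAM* 5.59 to 10.2 CPM.

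To show what member promoters hold, RefSeq promoter sequences (GRCh38.p14, from 250 bases before to 50 bases after each annotated start) were matched by symbol for 78 of the 98 members. NRF1, nuclear respiratory factor, is a known activator of respiratory chain genes, and its core letters GCATGCGC, read on both strands, were present in 15 of the 78 member promoters (19.2%) and in 3.27% of all 27305 promoters. The ETS letters CCGGAAGT, bound by the GABP factors, were present in 10 (12.8%, against 4.43% of all promoters) and the YY1 letters AAGATGGC in 11 (14.1%, against 3.03%). The CCAAT letters were as frequent in members (28, or 35.9%) as in all promoters (35.7%), and the letters TGATGNAA, a core of the element bound by the stress factor ATF4, were present only in *NDUFS6* (1.28%, against 3.67%). No motif contains another, although the ends of neighbouring matches can share letters, and the NRF1 letters can match on both strands at once, as in *NDUFB4*. A match is a description of the letters and not a measured binding site. Windows of 60 bases that lie wholly before the annotated start and overlap no GENCODE exon are printed for members whose responses are described further on, 5′ to 3′ on the strand of the gene, with the NRF1 letters in capitals in the first 4 and the CCAAT letters (or ATTGG, their reverse complement) in the last 2.
SDHB (chr1:17054199-17054258, minus strand): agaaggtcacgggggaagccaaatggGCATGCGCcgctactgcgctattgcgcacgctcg
COX5B (chr2:97645900-97645959, plus strand): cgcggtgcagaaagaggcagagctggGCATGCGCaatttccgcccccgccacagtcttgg
NDUFB4 (chr3:120596151-120596210, plus strand): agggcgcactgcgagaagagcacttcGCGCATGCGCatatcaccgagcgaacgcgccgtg
ATP5MC2 (chr12:53676090-53676149, minus strand): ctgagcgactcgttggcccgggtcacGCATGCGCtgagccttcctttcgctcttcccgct
COX6B1 (chr19:35648133-35648192, plus strand): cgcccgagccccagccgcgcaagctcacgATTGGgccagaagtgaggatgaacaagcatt
UQCRC2 (chr16:21953221-21953280, plus strand): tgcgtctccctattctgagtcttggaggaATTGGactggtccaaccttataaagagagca

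NXP800 lowered the level of most nuclear-encoded respiratory chain genes, modestly and in all 5 complexes. Members with enough counts to be tested numbered 90 of 98. The other 8 were the readthrough genes *NDUFC2-KCTD14* and *ATP5MF-PTCD1*, *ATP5MGL* (all 3 with 0 counts in all 12 libraries) and 5 isoforms of complex IV described further on. At 6 h, 60 of the 90 (66.7%) were lower under NXP800 at a Benjamini-Hochberg adjusted p below 0.05 in edgeR's quasi-likelihood test, where 27.8% of all 15979 tested genes were called lower. Only 2 members were higher, against 25.0% of all tested genes. At 24 h, 69 members (76.7%) were lower, against 28.6% of all genes, and 4 were higher, against 27.5%. The tested members had a median log2 fold change of -0.26 (6 h) and -0.37 (24 h), beside -0.05 and -0.0033 over all tested genes. Because these are bulk counts relative to the library total, fewer cells that express a gene and less RNA per cell cannot be told apart.

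Most members called at 6 h were also called at 24 h. Of the 90, 54 (60%) were called lower at both 6 h and 24 h, against 18.5% of all tested genes. A further 6 were lower at 6 h alone, 15 at 24 h alone, and 10 passed the threshold at neither time. All 3 NXP800 libraries lay below all 3 DMSO libraries for 67 members at 6 h (74.4%, against 32.7% of all tested genes) and for 71 at 24 h (78.9%, against 30.1%). The reverse, all 3 NXP800 libraries above, held for 2 members at 6 h (against 29.3% of all genes) and 4 at 24 h (against 29.0%). With the replicate number as a block, 75 members were lower at 6 h (83.3%, against 33.4% of all tested genes) and 72 at 24 h (80%, against 33.1%). With per-library offsets for GC content and transcript length added to the block, the numbers were 70 (77.8%, against 34.7%) and 72 (80%, against 34.0%). Member transcripts were short, with a median canonical length of 783.5 bases against 3162.5 bases for all tested genes. Of the 59 tested members that share under 10% of their exon bases with other annotated genes, 44 were lower at each time.

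**Figure D1:**
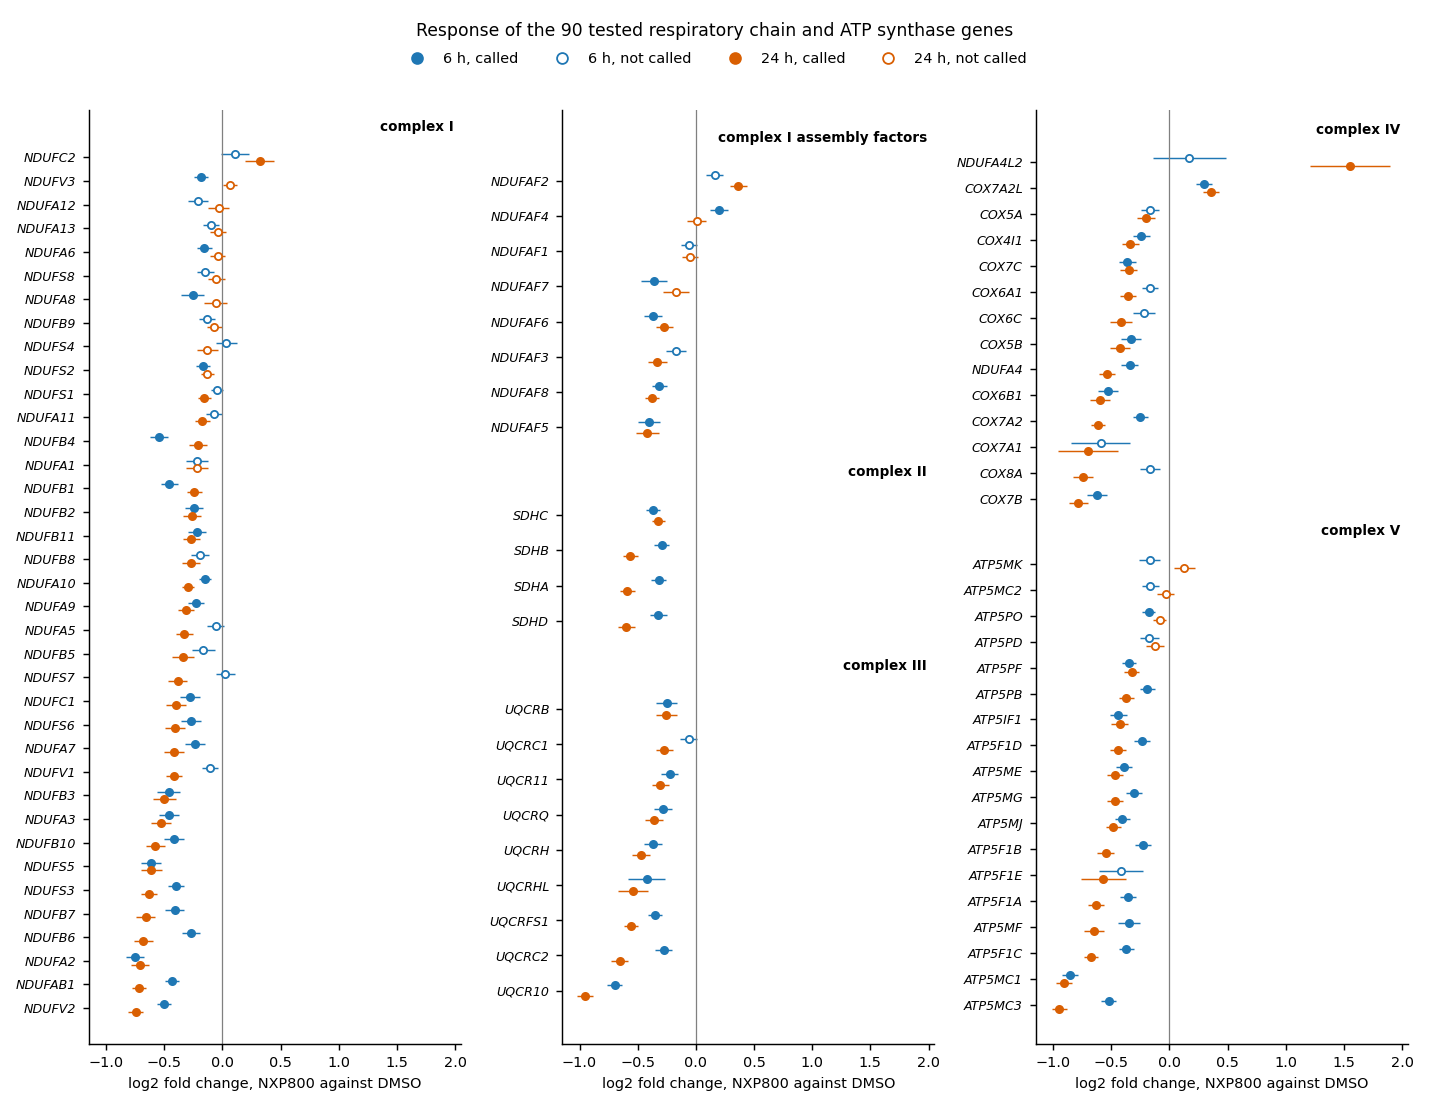
Log2 fold change of NXP800 against DMSO (horizontal axis, with its standard error) for each of the 90 tested genes, in panels by complex, at 6 h (blue) and 24 h (orange), with filled points for an adjusted p below 0.05. Most points lie left of 0, with medians of -0.26 at 6 h and -0.37 at 24 h, and *NDUFA4L2* stands apart at 1.55 at 24 h.

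The summed level gives the same picture per library. In the DMSO 6 h libraries the members together held 11819, 12550 and 11180 CPM, and in the NXP800 6 h libraries 10050, 9989 and 9691 CPM. In the DMSO 24 h libraries they held 14070, 14168 and 14366 CPM, and in the NXP800 24 h libraries 11273, 9987 and 10891 CPM. The groups did not overlap at either time, and the mean sum changed by -16.4% at 6 h and -24.5% at 24 h. By complex, the change of the summed level at 24 h was -18.8% for complex I, -30.8% for complex II, -27.1% for complex III, -24.0% for complex IV and -28.6% for complex V, and -9.56% for the complex I assembly factors. DMSO libraries held more at 24 h than at 6 h, while the NXP800 means of the 2 times were closer, at 9910 and 10717 CPM. Since time and library set cannot be told apart, such a gap between the times may belong to either.

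**Figure D2:**
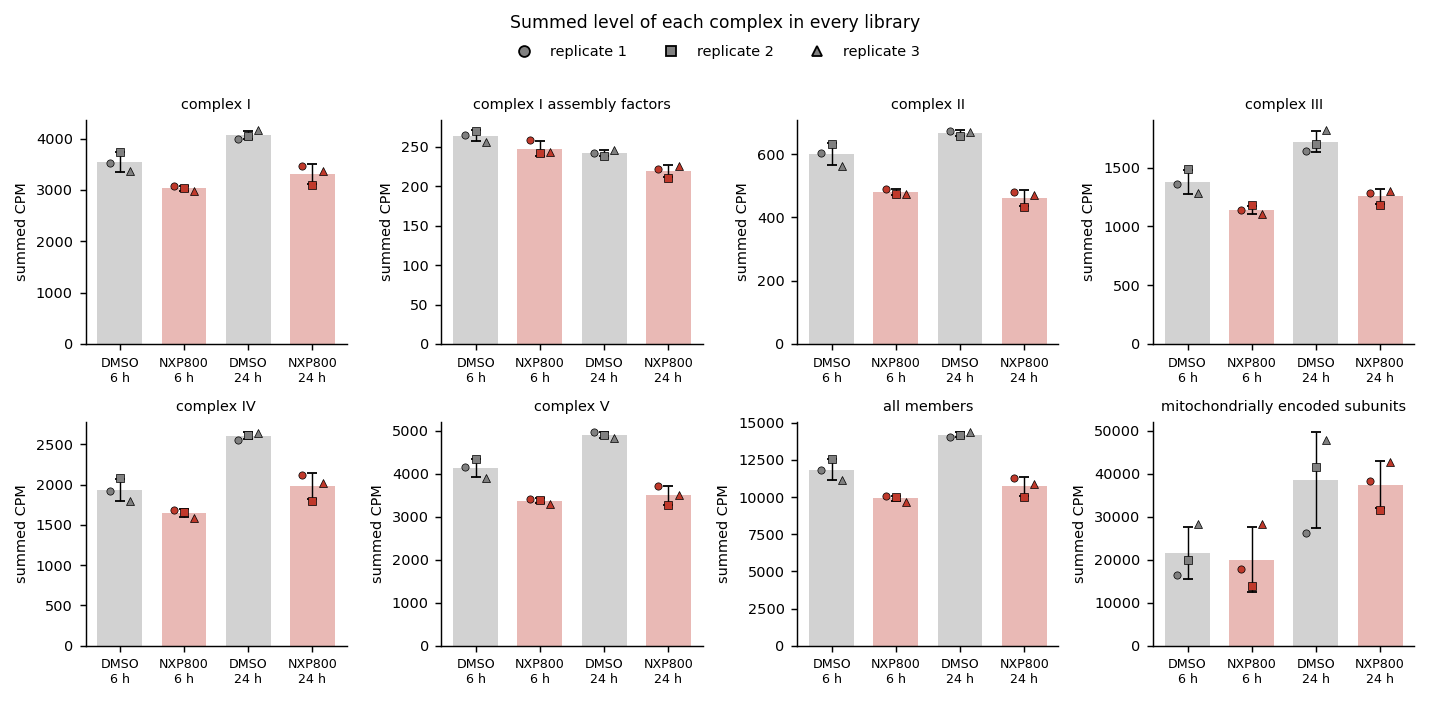
Summed CPM (vertical axis, from 0) of the members of each complex, of all members and of the 13 mitochondrially encoded subunits in every library, with bars for group means, error bars for the SD of 3 libraries and symbols for replicate numbers. For all members the NXP800 sums lie below the DMSO sums of the same time, whereas the mitochondrially encoded sums overlap.

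Complex I takes electrons from NADH in its peripheral arm, whose N module binds NADH and Q module reduces ubiquinone, and pumps protons in its membrane arm. At 6 h 23 of 37 tested members were lower (median -0.22) and at 24 h 26 were lower and 1 higher (median -0.30). Of the 7 core subunits of the N and Q modules, 3 were lower at 6 h and 5 at 24 h. Of the 20 accessory subunits of the membrane arm and linker, 13 and then 15 were lower.

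*NDUFV2*, an iron-sulfur core subunit of the N module (chr18:9102699-9134341), was at 171, 190 and 172 CPM in DMSO 6 h libraries and 126, 128 and 121 CPM in NXP800 6 h libraries. At 24 h it was at 126, 127 and 128 CPM under DMSO and 71.7, 74.8 and 80.6 CPM under NXP800. The groups did not overlap at either time, with log2 fold changes of -0.50 ± 0.06 (SE) and then -0.75 ± 0.06 (edgeR adjusted p = 4.02e-06 and 4.83e-08). *NDUFA2*, an accessory subunit of the N module (chr5:140645285-140647630), fell the most of complex I at 6 h, from 38.8, 43.2 and 35.9 CPM to 23.4, 23.1 and 23.5 CPM. At 24 h it went from 65.1, 72.0 and 70.6 CPM under DMSO to 44.3, 38.6 and 44 CPM under NXP800. Its log2 fold changes, -0.75 ± 0.08 and -0.71 ± 0.08 (edgeR adjusted p = 1.03e-06 and 1.07e-06), were nearly equal. *NDUFAB1*, the mitochondrial acyl carrier protein, which is also a subunit of complex I, changed by -25.9% at 6 h and -39.2% at 24 h (log2 -0.43 and -0.72). *NDUFS5*, an accessory membrane arm subunit, changed by -0.61 ± 0.09 on the log2 scale at both times.

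Not every complex I gene was called lower. *NDUFB9*, the member of complex I with the highest level per length (338 CPM per kb of canonical transcript in the DMSO 6 h libraries), was at 229 to 242 CPM under DMSO and 210 to 219 CPM under NXP800 at 6 h (log2 -0.13 ± 0.07, edgeR adjusted p = 0.105), and the groups overlapped at 24 h (log2 -0.07 ± 0.07). *NDUFC2*, with the lowest level per length (2.59 CPM per kb), was the 1 complex I member called higher, at 24 h only. It was at 3.85, 4.10 and 4.12 CPM under DMSO and 4.59, 4.89 and 5.58 CPM under NXP800 at 24 h (log2 0.32 ± 0.13, edgeR adjusted p = 0.0402). These groups were apart but close, and the call ended under DESeq2 (adjusted p = 0.0751), without the filter on low counts (edgeR adjusted p = 0.0840), in the fit to the 24 h libraries alone (edgeR adjusted p = 0.0672) and in 7 of the 12 fits that leave out 1 library. In addition, 21.0% of its exon bases lie in other annotated genes, first of all the readthrough gene NDUFC2-KCTD14, so reads could be split or left uncounted.

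The 8 NDUFAF assembly factors, which help to build complex I without being part of it, were mixed: 4 were lower and 1 higher at each time. *NDUFAF5* fell from 13.1, 14.3 and 14.2 CPM to 10.7, 11.1 and 9.64 CPM at 6 h and from 14.1, 13.7 and 14 CPM to 11.7, 10.1 and 9.38 CPM at 24 h. The groups did not overlap (log2 -0.40 ± 0.10 and -0.42 ± 0.10, edgeR adjusted p = 0.00256 and 0.00177). *NDUFAF6* and *NDUFAF8* changed by -22.5% and -19.6% at 6 h and by -17.2% and -23.0% at 24 h, all called. *NDUFAF2*, a chaperone-like factor related to an N module subunit, was higher at 24 h, at 38.0, 37.7 and 40.7 CPM against 29.5, 28.8 and 32.2 CPM (log2 0.36 ± 0.07, edgeR adjusted p = 0.000447), and with the replicate block it was also higher at 6 h (log2 0.16, edgeR adjusted p = 0.0168). *NDUFAF4* was called higher at 6 h alone (log2 0.20 ± 0.08, edgeR adjusted p = 0.0445), with overlapping groups, and that call was lost with GC content and length offsets (log2 0.03).

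Complex II, succinate dehydrogenase, links the citric acid cycle to the chain and is wholly nuclear-encoded. Its 4 genes were all lower at both times, with no overlap between NXP800 and DMSO libraries. *SDHA*, the flavoprotein that oxidises succinate (chr5:218320-268746), was at 233, 245 and 221 CPM under DMSO and 189, 183 and 188 CPM under NXP800 at 6 h. At 24 h the values were 262, 257 and 267 CPM under DMSO and 178, 158 and 186 CPM under NXP800. On the log2 scale these are changes of -0.32 ± 0.07 and -0.59 ± 0.07 (edgeR adjusted p = 0.000697 and 1.41e-06). *SDHB*, the iron-sulfur subunit, with the NRF1 letters in the window printed above, followed it closely (log2 -0.29 and -0.56). Of the 2 membrane anchors, *SDHD* changed by -0.32 and -0.60 and *SDHC* by -0.37 and -0.32 on the log2 scale, so that *SDHC* had nearly the same change at both times.

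Complex III, the cytochrome bc1 complex, passes electrons from ubiquinol to cytochrome c. At 6 h 8 of its 9 members were lower (median -0.28) and at 24 h all 9 were (median -0.47). *UQCR10*, a small accessory subunit (chr22:29767369-29770413), was at 123, 116 and 107 CPM in DMSO 6 h libraries and 71.5, 72.7 and 69.5 CPM in NXP800 6 h libraries. At 24 h the levels were 171, 170 and 176 CPM under DMSO and 87.7, 83.4 and 96.0 CPM under NXP800. These groups lay far apart, and the log2 fold change at 24 h, -0.95 ± 0.07 (edgeR adjusted p = 5.74e-09, after -0.70 ± 0.07 at 6 h), was the lowest of the 90 members.

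The core protein gene *UQCRC2*, shown above with a CCAAT match, changed by -17.4% at 6 h and -36.4% at 24 h. *UQCRH*, the hinge protein gene and the highest of complex III per length (381 CPM per kb at DMSO 6 h), was at 190 to 221 CPM under DMSO and 152 to 164 CPM under NXP800 at 6 h (log2 -0.37 ± 0.08). Its near-identical copy *UQCRHL* was at 2.91, 4.00 and 3.77 CPM under DMSO and 2.55, 2.26 and 3.16 CPM under NXP800 at 6 h, which overlap. Although *UQCRHL* was called lower at both times (log2 -0.42 ± 0.16 and -0.54 ± 0.13), reads of the 2 copies may not be separable.

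Complex IV, cytochrome c oxidase, has 11 ubiquitous members here, including *NDUFA4*, 7 tissue-restricted or alternative isoforms and *COX7A2L*. Of the 11 ubiquitous members, 7 were lower at 6 h and all 11 at 24 h (median -0.25 and -0.42). With the replicate block, 12 of the 14 tested members of the complex were lower at 6 h, against 7 without it. *COX7B*, a small structural subunit, was at 98.1, 102 and 82.2 CPM under DMSO and 60.7, 65.6 and 57.1 CPM under NXP800 at 6 h. At 24 h it was at 155, 176 and 182 CPM under DMSO and 101, 97.5 and 99.5 CPM under NXP800. The groups did not overlap (log2 -0.62 ± 0.08 and -0.78 ± 0.08, edgeR adjusted p = 1.17e-05 and 7.13e-07). *COX6B1* behaved alike (log2 -0.53 ± 0.09 and -0.59 ± 0.08). *COX4I1*, the highest of the complex per length (501 CPM per kb at DMSO 6 h), changed less, by -15.3% at 6 h and -20.7% at 24 h.

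The supercomplex factor *COX7A2L* (chr2:42335559-42368957), which binds complex III and favours its association with complex IV, went the other way. It was at 116, 121 and 108 CPM under DMSO and 141, 145 and 139 CPM under NXP800 at 6 h. By 24 h the values were 118, 107 and 121 CPM under DMSO and 155, 135 and 154 CPM under NXP800. All NXP800 libraries lay above all DMSO libraries at both times, and the log2 fold change was 0.30 ± 0.07 and 0.36 ± 0.07 (edgeR adjusted p = 0.00169 and 0.000317). It was the 1 member called higher at both times. The direction held under each scaling tried.

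The isoforms known for restricted expression were near or at the detection limit. *COX4I2*, *COX6A2* and *COX7B2* had 0 counts in all 12 libraries, where a count of 0 allows up to 3 counts, or 0.0939 to 0.0974 CPM, and *COX8C* and *COX6B2* had at most 1 and 3 counts. *COX7A1*, the heart and muscle isoform of *COX7A2*, was at 0.675 to 1.44 CPM over all libraries, and its fall at 24 h (log2 -0.70 ± 0.26, edgeR adjusted p = 0.0289) rests on 22 to 43 counts per library and ended under DESeq2 (adjusted p = 0.0869), whereas the replicate block also called its change at 6 h (edgeR adjusted p = 0.0353). *NDUFA4L2*, a paralogue of *NDUFA4* known as a hypoxia-induced gene, was at 1.17, 0.788 and 1.97 CPM under DMSO and 1.44, 1.13 and 1.87 CPM under NXP800 at 6 h, which overlap (log2 0.17 ± 0.31). At 24 h it was at 0.836, 0.673 and 0.446 CPM under DMSO and 1.78, 1.47 and 2.52 CPM under NXP800, which do not. The 24 h log2 fold change, 1.55 ± 0.34 (edgeR adjusted p = 0.00109), was the highest of all members, at 13 to 79 counts per library. *NDUFA4* itself, at 101 CPM per kb in the DMSO 6 h libraries against 1.39 CPM per kb for *NDUFA4L2*, fell at both times (log2 -0.34 and -0.54).

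Complex V consists of the F1 head, where ATP is made, a membrane part with the rotating ring of c subunits, and a peripheral stalk. At each time 14 of 18 tested members were lower (median -0.35 and -0.47). The F1 genes moved together: 4 of 5 were lower at 6 h and all 5 at 24 h, and the change at 24 h ran from -26.3% to -37.3%. *ATP5F1B*, which encodes the catalytic beta subunit and had the highest level per length of all members (610 CPM per kb at DMSO 6 h), was at 1018 to 1126 CPM under DMSO and 894 to 936 CPM under NXP800 at 6 h. The 24 h levels were 1241 to 1332 CPM and 811 to 938 CPM, again with no overlap (log2 -0.23 ± 0.07 and -0.55 ± 0.07). *ATP5F1E*, of the central stalk, was at only 1.52 to 3.65 CPM, and 23.2% of its exon bases lie in *TUBB1*, so its call at 24 h (log2 -0.57 ± 0.20), lost with library size only (edgeR adjusted p = 0.0626), is uncertain. *ATP5IF1*, the inhibitor that blocks ATP hydrolysis by the enzyme, changed by -26.2% at 6 h and -25.7% at 24 h (log2 -0.44 and -0.43).

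The c-ring subunit is encoded by 3 genes whose mature protein is the same, and they did not respond alike. *ATP5MC1* (chr17:48892787-48895871) was at 121, 141 and 124 CPM under DMSO and 71.1, 70.2 and 72.6 CPM under NXP800 at 6 h, and at 163, 165 and 164 CPM against 84.4, 82.9 and 94.8 CPM at 24 h. *ATP5MC3* (chr2:175176258-175181710) was at 243, 254 and 217 CPM against 167, 169 and 162 CPM at 6 h, and at 323, 336 and 315 CPM against 177, 161 and 167 CPM at 24 h. *ATP5MC2* (chr12:53665170-53681423) was at 183, 192 and 167 CPM against 169, 150 and 165 CPM at 6 h, and at 239, 222 and 205 CPM against 229, 206 and 217 CPM at 24 h. The groups were far apart for *ATP5MC1* and *ATP5MC3* and overlapped at both times for *ATP5MC2*. The log2 fold changes were -0.85 ± 0.07 and -0.91 ± 0.07 for *ATP5MC1*, the lowest of all members at 6 h, and -0.52 ± 0.07 and -0.95 ± 0.07 for *ATP5MC3*. For *ATP5MC2* they were -0.16 ± 0.07 and -0.03 ± 0.07 (edgeR adjusted p = 0.0732 and 0.722), and with the replicate block the change at 6 h was called lower (log2 -0.16, edgeR adjusted p = 0.0220). The differences between the 3 genes were not tested, and RefSeq names 8 pseudogenes of *ATP5MC1* and 5 of *ATP5MC2*, whose shared reads the counts cannot assign.

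**Figure D3:**
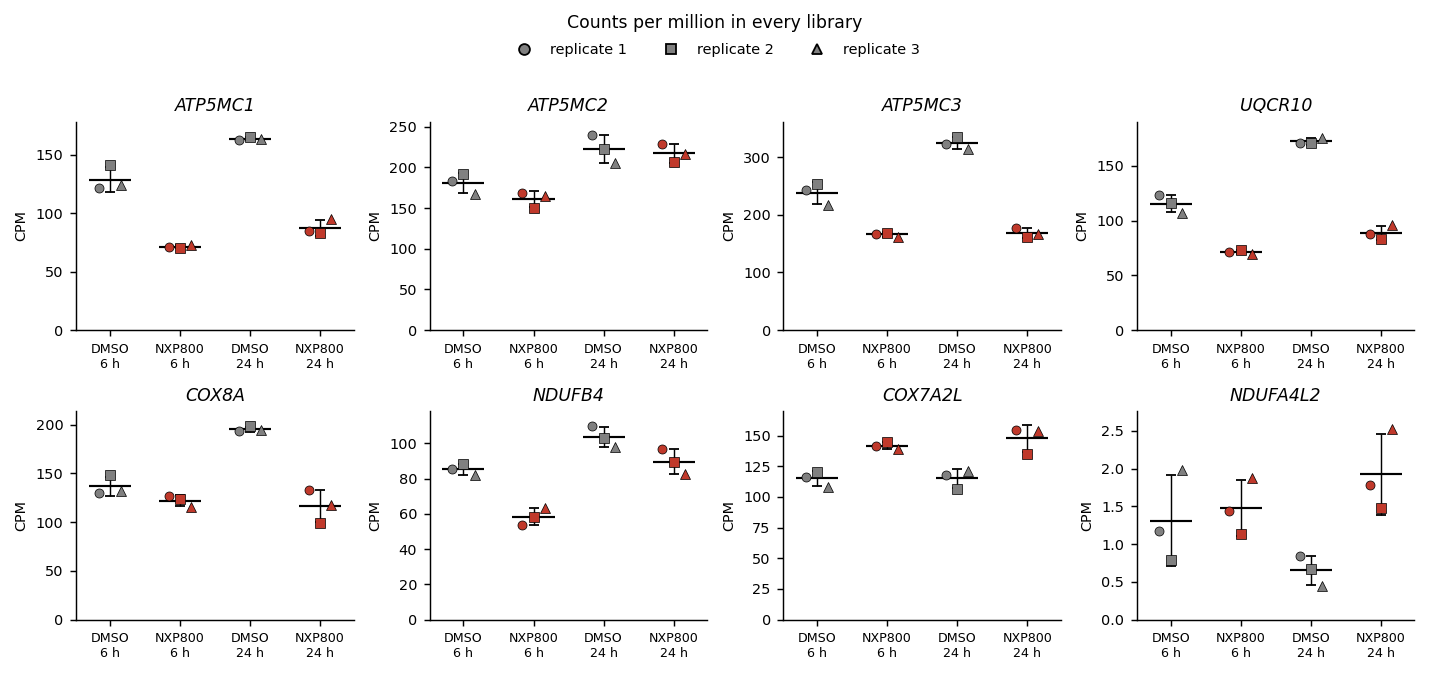
CPM (vertical axis, from 0) of 8 genes in every library, with symbols for replicate numbers, a line for the mean and error bars for the SD of 3 libraries. The NXP800 libraries lie below the DMSO libraries of the same time for *ATP5MC1*, *ATP5MC3*, *UQCR10*, *COX8A* and *NDUFB4*, above them for *COX7A2L*, and overlap them for *ATP5MC2*, while *NDUFA4L2* separates at 24 h only.

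Members with the NRF1 letters in their promoter were lower in 11 of 15 cases at each time (median -0.29 and -0.38). Members with a given promoter but with none of the NRF1, ETS and YY1 letters were lower in 30 of 43 tested cases at 6 h and 35 of 43 at 24 h (median -0.30 and -0.41). The difference between the 2 sets was not tested. Of the 4 genes whose NRF1 windows are printed above, *ATP5MC2* was called at 6 h with the replicate block alone and the other 3 at both times, with *COX5B* at -0.33 and -0.42 and *NDUFB4* at -0.55 and -0.21 on the log2 scale.

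Whether the response differed between the times was tested as the difference of the 2 log2 fold changes, 24 h minus 6 h. Called members numbered 13 lower (14.4%) and 3 higher, against 13.8% and 12% of all tested genes. Lower here means a lower signed log2 fold change at 24 h than at 6 h, and that share was near the background. With the replicate block, which raised the count of called members from 16 to 30, 26 members were lower (28.9%) and 4 higher, against 20.9% and 18.4% of all tested genes. With GC content and length offsets added, 26 were lower and 10 higher (28.9% and 11.1%), against 22.8% and 22.2% of all tested genes. The shares of all genes called rose in both of these fits. In both, the members' share called lower lay above that of all genes, and their share called higher lay below it. With library size only as scaling, the calls over all genes were 2463 higher and 1670 lower in place of 1924 and 2205, and those of members 6 higher and 10 lower.

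*COX8A*, a small subunit of complex IV (chr11:63974620-63976543), had the lowest difference. It was at 130, 148 and 132 CPM under DMSO and 127, 123 and 116 CPM under NXP800 at 6 h, and at 194, 198 and 194 CPM against 133, 99.6 and 117 CPM at 24 h. The 6 h groups nearly touched and the 24 h groups lay far apart. The log2 fold change of -0.17 ± 0.09 at 6 h was called only with the replicate block (edgeR adjusted p = 0.117, and 0.0406 with it), that of -0.74 ± 0.09 at 24 h in both fits, and the difference was -0.58 ± 0.12 (edgeR adjusted p = 0.00241). For *ATP5MC3* the difference was -0.43 ± 0.09 (edgeR adjusted p = 0.00309), and the NXP800 libraries of the 2 times held like levels while the DMSO libraries were higher at 24 h. Levels of the 2 times also differ in library set. *NDUFS7*, an iron-sulfur core subunit of complex I, was at 41.9, 35.8 and 42.7 CPM under DMSO and 40.9, 42.4 and 39.2 CPM under NXP800 at 6 h. At 24 h it was at 69.6, 67.3 and 73.7 CPM against 55.8, 47.9 and 57.7 CPM, so that groups that overlapped at 6 h were apart at 24 h (difference -0.41 ± 0.12, edgeR adjusted p = 0.0166). *NDUFB6*, of the membrane arm, went from a change of -17.2% at 6 h to -37.5% at 24 h (difference -0.41 ± 0.11).

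The other direction was seen in *NDUFB4*, *NDUFV3* and *NDUFA4L2*. *NDUFB4*, an accessory subunit of the membrane arm, was at 85.2, 88.5 and 82.1 CPM under DMSO and 53.6, 58.4 and 63.3 CPM under NXP800 at 6 h. After 24 h the levels were 110, 103 and 97.9 CPM against 96.9, 89.2 and 82.6 CPM. The groups were far apart at 6 h and nearly touched at 24 h (difference 0.33 ± 0.11, edgeR adjusted p = 0.0280). *NDUFV3*, of the N module, changed by -11.9% at 6 h and was not called at 24 h (difference 0.25 ± 0.08, edgeR adjusted p = 0.0397). Of the 12 fits that leave out 1 library, 7 ended the call of the difference for *NDUFB4* (differences 0.27 to 0.39), 10 for *NDUFV3* (0.21 to 0.28) and 8 for *NDUFA4L2* (0.96 to 1.64).

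**Figure D4:**
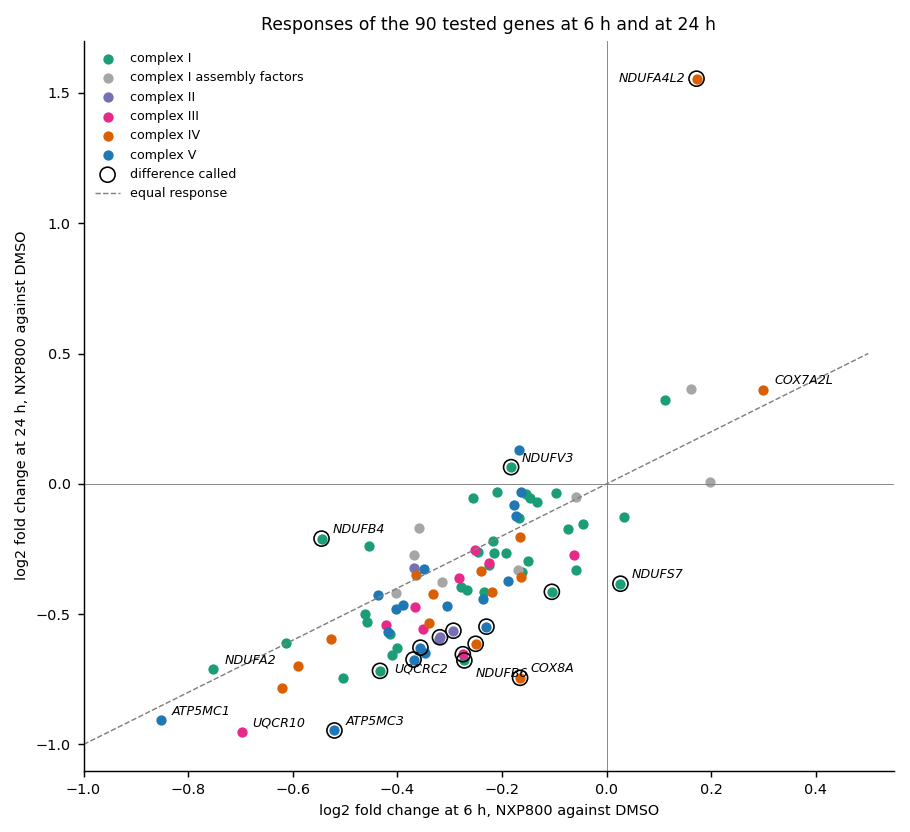
Log2 fold change at 24 h (vertical axis) against that at 6 h (horizontal axis) for the 90 tested genes, coloured by complex, with rings around the 16 genes whose difference of responses was called and a dashed line of equal response. *COX8A* lies below the line, at -0.17 and -0.74, and *NDUFB4* above it, at -0.55 and -0.21.

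The other genes of the pathway were counted in lists written from general knowledge, and their counts stand beside the shares of all tested genes given above (27.8% lower and 25.0% higher at 6 h, 28.6% lower and 27.5% higher at 24 h). The 13 mitochondrially encoded subunits had summed levels of 16549, 19861 and 28227 CPM in DMSO 6 h libraries and 17746, 13961 and 28389 CPM in NXP800 6 h libraries. At 24 h the sums were 26247, 41614 and 47840 CPM under DMSO and 38258, 31590 and 42666 CPM under NXP800. The spread within a group was wider than the gap between groups. In edgeR's quasi-likelihood test 0 of the 13 were called at either time (0 also at an unadjusted p below 0.05, and 0 by DESeq2), and their median was -0.12 (6 h) and -0.10 (24 h) on the log2 scale. With the replicate block *ND2* and *ND3* were lower and *ND6* higher at 6 h, and *ND3* and *ND6* lower at 24 h, named here after their values were seen. With GC content and length offsets added to the block, 4 of the 13 were lower at 6 h (30.8%, against 34.7% of all tested genes) and 1 higher. At 24 h 2 were lower in that fit (15.4%, against 34.0%). Its medians were -0.26 at 6 h and -0.07 at 24 h, beside -0.29 and -0.35 for the members, so at 6 h the 2 medians were close. The difference from the nuclear-encoded members was not tested.

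Assembly factors beyond the NDUFAF genes held calls in both directions, with more lower than higher in each list at each time in the main fit (group means only). At 24 h this depended on the fit. With library size only, the complex IV list had 8 higher and 5 lower, and with the replicate block and offsets 8 of each. The complex V list had 1 of each with library size only and by DESeq2. Of 12 further factors for complex I, 5 were lower (41.7%) and 0 higher at 6 h, and 5 were lower (41.7%) and 2 higher (16.7%) at 24 h. With the replicate block 8 were lower at 6 h (66.7%, against 33.4% of all tested genes). *TMEM70*, which acts in the assembly of complexes I and V, was at 57.8, 58.6 and 54.4 CPM under DMSO and 40.6, 38.3 and 40.4 CPM under NXP800 at 6 h (log2 -0.52 ± 0.06, edgeR adjusted p = 2.60e-06). *FOXRED1* fell the most of this list at 24 h (log2 -0.66 ± 0.09) and *TMEM126A* rose (log2 0.37 ± 0.09). Of 10 factors for complexes II and III, 6 were lower (60%) and 1 higher (10%) at 6 h, and 4 lower (40%) and 1 higher (10%) at 24 h. *UQCC3*, a factor for complex III, changed by -41.5% and -37.0%, whereas *TTC19* rose at 6 h (log2 0.38 ± 0.08) and *LYRM7*, a chaperone of the Rieske protein, at 24 h (log2 0.48 ± 0.07).

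For complex IV, 4 of 25 tested assembly factors were higher and 7 lower at 6 h, and 6 higher and 8 lower at 24 h. Its shares called lower, 28% and 32%, were near those of all genes. *COX19*, a copper-related factor, was at 13.4, 12.5 and 13.0 CPM under DMSO and 29.6, 25.8 and 27.4 CPM under NXP800 at 6 h, and at 13.9, 12.3 and 11.3 CPM against 22.1, 23.0 and 23.1 CPM at 24 h. Its libraries were far apart (log2 1.09 ± 0.09 and 0.86 ± 0.09, edgeR adjusted p = 4.78e-08 and 5.56e-07). *COA3* had the largest fall of the list at 6 h (log2 -0.62 ± 0.10) and *PET100* at 24 h (log2 -0.58 ± 0.10). Of the 4 tested factors for complex V, 2 were lower at each time, among them *ATPAF1* (log2 -0.41 and -0.34), and *TMEM242* rose at 24 h (log2 0.31 ± 0.07).

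Of 18 genes of the electron carriers and their synthesis, 3 were lower and 3 higher at 6 h, and 10 were lower and 1 higher at 24 h. Both shares at 6 h (16.7%) lay below those of all genes. With the replicate block 4 were lower (22.2%) and 6 higher (33.3%) at 6 h, and 11 lower (61.1%) and 2 higher (11.1%) at 24 h. Of all 15979 tested genes, that block called 5331 lower (33.4%) and 4622 higher at 6 h, and 5294 lower (33.1%) and 5117 higher at 24 h. *ETFDH*, which feeds electrons from fatty acid oxidation into ubiquinone, was at 9.10, 11 and 12.8 CPM under DMSO and 5.22, 6.08 and 5.39 CPM under NXP800 at 24 h (log2 -0.98 ± 0.13, edgeR adjusted p = 1.11e-05). *COQ10B*, a ubiquinone-binding protein, was higher at both times (log2 0.56 ± 0.09 and 0.42 ± 0.09), and *COQ8A* lower at 6 h (log2 -0.34 ± 0.11) and, with the replicate block alone, at 24 h (log2 -0.21, edgeR adjusted p = 0.0337). Among 16 regulators of mitochondrial gene expression, 4 were lower and 4 higher at 6 h, and 6 lower and 2 higher at 24 h. *PPARGC1A*, which encodes the coactivator PGC-1alpha of mitochondrial biogenesis, was at 8.08, 8.67 and 6.59 CPM under DMSO and 2.39, 2.97 and 3.44 CPM under NXP800 at 6 h. At 24 h it was at 4.58, 6.15 and 5.18 CPM against 1.95, 1.98 and 2.49 CPM, with no overlap at either time (log2 -1.41 ± 0.16 and -1.31 ± 0.18, edgeR adjusted p = 2.96e-06 and 1.01e-05). The mitochondrial transcription factor gene *TFB2M* rose (log2 0.49 ± 0.06 and 0.34 ± 0.06), as did *MTERF1* (log2 0.25 ± 0.09 and 0.46 ± 0.09).

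**Figure D5:**
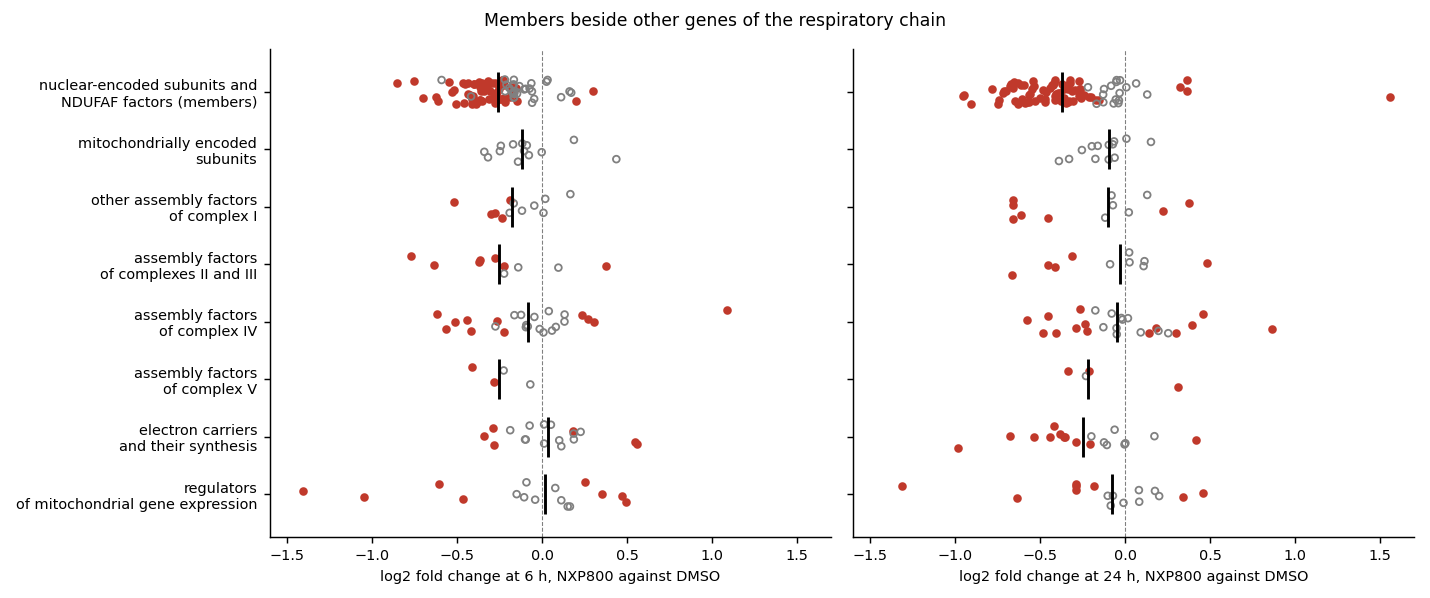
Log2 fold change of NXP800 against DMSO (horizontal axis) at 6 h (left) and 24 h (right) for each tested gene of the members and of 7 lists of other respiratory chain genes, with red points for an adjusted p below 0.05, open grey points for the others and a black bar for the median. The median of the members is -0.26 and -0.37, and that of the 13 mitochondrially encoded subunits -0.12 and -0.10 with no red point.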

How the data were processed

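RNA-seq of 12 libraries was analysed. The submitters' processing notes name fastp 0.20.1, STAR 2.7.5a and HTSeq 0.12.4, and the authors aligned strand-specific read pairs to hg38 with the RefSeq annotation. What was deposited is the raw count of each gene symbol per library, not normalized. The strand and overlap settings of the counting are not given in the sources used here. Totals for pairs assigned to no gene were kept out of library sizes and tests.

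The edgeR 4.0.16 quasi-likelihood test (R 4.3.3) was run with TMM scaling and filterByExpr in 1 model of the 4 groups, with Benjamini-Hochberg adjustment over 15979 genes and a threshold of 0.05, after tests on simulated data. Depth was at least 30810614 counts on genes per library. CPM uses TMM-scaled library sizes. Positions are from RefSeq (GRCh38.p14). Canonical lengths, GC content (known for 91.6% of tested genes) and exon overlaps are from GENCODE. Values after ± are SE.

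Members and lists were chosen with earlier results of these data known. Named genes are the 2 largest called rises and falls per complex and time, the 4 largest called differences each way, the restricted isoforms with *UQCRHL* and *ATP5IF1*, the highest and lowest per length in each complex, and the largest called rise and fall per list and time. *ATP5MC2*, *NDUFA4*, *COX5B*, *NDUFS6*, *ND2*, *ND3* and *ND6* fall outside this rule and were chosen after their values were seen.

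As a check of pairing, deviations from group means were correlated over genes between each NXP800 library and the DMSO libraries of its time. For equal replicate numbers in the labels r was 0.159 to 0.329, for unequal numbers at most 0.058, so the numbers were taken to pair the libraries. The main fit has group means only and leaves this pairing out, also from its p-values and SE. The pairing enters only the fits named as having the replicate block. Alternatives were DESeq2 size factors, library size only, no filter, at least 10 counts in every library, a fit to the 6 libraries of 1 time, the replicate block, that block with spline offsets for GC content and length, the Wald test of DESeq2 1.42.0, an adjusted p below 0.01, and leaving out each library.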

Additional observations from a re-analysis of the deposited data

Results flagged for a closer look

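For these genes the response to NXP800 differed between 6 h and 24 h by the test of the difference itself (24 h minus 6 h on the log2 scale, edgeR adjusted p below 0.05), listed for genes named by the rule. The difference was negative for 9 members, which means a lower signed log2 fold change at 24 h than at 6 h, not a weaker response. It was -0.579 for *COX8A*, -0.426 for *ATP5MC3*, -0.409 for *NDUFS7*, -0.406 for *NDUFB6* and -0.379 for *UQCRC2*. The difference was -0.318 for *ATP5F1B*, -0.284 for *NDUFAB1*, -0.271 for *SDHB* and -0.27 for *SDHA*. It was positive for *NDUFA4L2* at 1.38, *NDUFB4* at 0.335 and *NDUFV3* at 0.247. Among the other genes of the pathway it was -1.08 for *ETFDH* and -0.382 for *FOXRED1*, and 0.446 for *TMEM70*, 0.419 for *TMEM126A*, 0.384 for *LYRM7* and 0.381 for *TMEM242*. Of the 12 fits that leave out 1 library, the call of the difference ended in 10 for *NDUFV3*, 9 for *SDHA*, 8 for *SDHB* and *NDUFA4L2*, 7 for *NDUFB4* and *TMEM126A*, 6 for *FOXRED1*, 5 for *ATP5F1B*, 2 for *NDUFAB1* and 0 for the other 9 genes. With library size only it ended for *SDHA* (edgeR adjusted p = 0.0753), *SDHB* (0.0617) and *FOXRED1* (0.104). Since time and library set cannot be told apart, a difference between the times may belong to either.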

How the results depend on the processing

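No called change of a named member changed sign under any alternative, and the counts of lower members at 6 h and 24 h stayed within 1.5 times the reported ones. Signs were compared under every alternative for named genes only. Members called higher at 6 h fell from 2 to 1 without a filter and at an adjusted p below 0.01. The difference of the responses was called in 16 members, but in 30 with the replicate block, 36 with the block and GC content and length offsets, and 3 at the stricter threshold, and the counts over all genes rose with the block too. Its lower calls went from 13 to 26, 26 and 3, and its higher calls from 3 to 10 with the block and offsets, 6 with library size only and 0 at the stricter threshold. Leaving out 1 library gave 44 to 65 called members at 6 h (43 to 64 lower, 1 to 3 higher), 64 to 74 at 24 h (60 to 70 lower, 3 to 4 higher), and 7 to 19 for the difference (7 to 19 lower, 0 to 2 higher). The count for the difference was 7 without NXP800 6 h replicate 1, 8 without DMSO 6 h replicate 3, 9 without DMSO 6 h replicate 1 or NXP800 6 h replicate 2, and 10 without DMSO 24 h replicate 1. Some changes of named members that were not called did change sign: *NDUFAF4* at 24 h (-0.021 with the block and offsets, -0.026 to 0.056 leaving out 1 library), *NDUFB9* at 24 h (0.020 with library size only, -0.13 to 0.0023), *NDUFA4L2* at 6 h (-0.089 to 0.60) and *NDUFS7* at 6 h (-0.050 to 0.074). The replicate block ended no member's call. The causes of these shifts were not tested. Depth limits *NDUFA4L2*, *COX7A1* and *ATP5F1E*, at most 120 counts per library.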
